A study of Mus musculus with 8 samples.

Results

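The immediate early genes of the AP-1 and EGR families were followed in cultured B16 cells, which are pigmented mouse melanoma cells. The set comprised 10 genes: Fos, Fosb, Fosl1, Fosl2, Jun, Junb, Jund, Egr1, Atf3 and Ier2. Its members were every spot on the array whose gene name was 1 of these 10, which gave 12 spots and 11 probes, out of 61537 non-control spots, 55698 probes and 34834 gene names. Fosl2 had 2 probes, the Atf3 probe was printed on 2 spots, and each other gene had 1 probe on 1 spot.

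RNA was measured on 8 one-colour arrays, 2 per group. The control cells carried the time label 0 h and the source name non targeted control, which the labels do not explain. Of the treated groups, 1 received SEMA3E for 2 h, another received SEMA3E for 8 h, and the last was exposed to cytochalasin D over 8 h. SEMA3E belongs to the secreted semaphorins, guidance proteins, and acts through the receptor plexin D1, whereas cytochalasin D blocks the growth of actin filaments. The study's title asks which transcripts SEMA3E and its receptor alter in these cells. All groups were cultured in medium with fetal bovine serum and the labels name no transgene or deletion in any of them. The 8 h groups had no control of their own time, and the labels give no dose and no vehicle control. Replicates were labelled biological. All 8 arrays lay on 1 slide with the arrays of a group in neighbouring positions, so position and group cannot be told apart.

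AP-1 is a pair of basic leucine zipper proteins, 1 from the FOS family and 1 from the JUN family or a JUN pair, with ATF proteins as further partners. Most of these genes are switched on within minutes by growth factors, serum or stress, through kinase pathways that act on factors already present in the cell, and their short-lived messenger RNAs decline again soon afterwards. EGR1 is a zinc finger factor with the same kind of control, and Ier2 encodes a nuclear protein of the same early response. ATF3 is also a target of the integrated stress response, in which a slowed start of translation raises the factor ATF4. In melanoma cells the MAPK pathway that feeds these genes is often active without an outside signal.

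Levels are given as log2 of the scanner's processed signal minus the 75th percentile of the detected probes of the same array. A level of 0 is that percentile, a difference of 1 is 2-fold, and a level of 1 probe is not set against that of another. A level is an average over a culture, in which fewer expressing cells and less RNA per cell cannot be told apart. That percentile was dimmest with SEMA3E at 2 h, at a signal of 1196 in replicate 1 and 1167 in replicate 2, and ranged from 1410 to 2768 elsewhere. Between 37.8% and 48.2% of spots were well above background. The negative controls of SEMA3E 8 h replicate 2 had a mean raw signal of 51.6, against 28.1 to 32.4 on the other arrays, and SEMA3E 2 h replicate 2 had 214 outlier spots, against 6 to 24. All 7 melanocyte markers were well above background on all 8 arrays, with a summed level from 90.9 to 137 times the 75th percentile. Of 19 markers of fibroblasts, macrophages, endothelial cells and keratinocytes, 9 were above background on no array and 5 on all 8 (Col1a1, Col1a2, Csf1r, Kdr and Pecam1), with summed levels of at most 0.155 in any of these lists. Of the 8 arrays, only SEMA3E 2 h replicate 2, SEMA3E 8 h replicate 2 and cytochalasin D replicate 2 were most like the other array of their own group, by the correlation across all tested genes.

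The 2 arrays of a group often disagreed on these genes, most of all in the SEMA3E groups. Egr1 and Atf3 were far higher in replicate 1 of SEMA3E 8 h than in replicate 2, and no member passed the test in any of the 5 comparisons. The genes are described first by family and array, then by comparison.

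Of the FOS family, Fos encodes the founding AP-1 partner. Its levels were -3.62 and -3.44 in the control arrays, -4.17 and -4.41 in the SEMA3E 2 h arrays, -3.09 and -4.06 in the SEMA3E 8 h arrays, and -3.56 and -3.72 with cytochalasin D. The SEMA3E 2 h arrays were thus the lowest 2 of the 8 and did not overlap with control. The difference at 2 h was -0.76 ± 0.35 (SE, limma moderated, 2 arrays against 2), or 1.69-fold lower, with a Benjamini-Hochberg adjusted p of 0.518 over all genes. Leaving out any 1 array kept that difference between -0.88 and -0.64, while it was -0.35 after normexp and -1.35 on the median over all probes. With cytochalasin D the Fos levels lay next to those of control, with a difference of -0.11 ± 0.35. At 8 h of SEMA3E replicate 1 was the highest and replicate 2 the third lowest of all 8 arrays, and the difference of -0.04 ± 0.35 ran from -0.53 without replicate 1 to 0.44 without replicate 2.

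Fosb, a second FOS-type partner, was a dim probe that was well above background on 6 of 8 arrays. It read -7.28 and -7.36 in control, -7.11 and -6.66 at 2 h, -6.11 and -6.93 at 8 h, and -6.87 and -7.15 with cytochalasin D. Replicate 2 of both SEMA3E groups was not well above background, so these 2 values are at the limit of the measurement. All 6 treated arrays lay above both controls, by 0.44 ± 0.34 at 2 h, 0.80 ± 0.34 at 8 h and 0.31 ± 0.34 with cytochalasin D. The smallest adjusted p among the 3 was 0.662, by limma with Benjamini-Hochberg adjustment. When arrays were scaled on the median over all probes, which moved the median of all genes to -0.53 at 2 h and -1.04 at 8 h, Fosb stood at -0.15 and -0.36, and quantile normalization gave -0.27 at 8 h.

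Fosl2 encodes FRA-2, a FOS-type partner that in many cells is expressed more steadily than Fos. Its brighter probe, above background on every array, read -1.97 and -1.95 in control, -3.17 and -1.61 at 2 h, -0.60 and -2.69 at 8 h, and -2.07 and -1.40 with cytochalasin D. The controls lay close together, while the SEMA3E arrays fell on both sides of them at both times. The differences were -0.43 ± 0.74 at 2 h, 0.31 ± 0.74 at 8 h and 0.23 ± 0.74 with cytochalasin D, and each changed sign when 1 of the arrays was left out. At 8 h it was 1.36 without replicate 2 and -0.74 without replicate 1.

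The other Fosl2 probe and the only probe of Fosl1, which encodes FRA-1, were near background and were not tested. The second Fosl2 probe was well above background on 1 array, SEMA3E 8 h replicate 2, at a level of -5.99, and read -10.63 to -8.15 on the other 7. Its arrays were thus ordered differently from those of the bright probe, which was lower in that replicate. Fosl1 was above background on control replicate 2 only, at -7.97, and read -9.80 to -7.60 elsewhere.

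**Figure D1:**
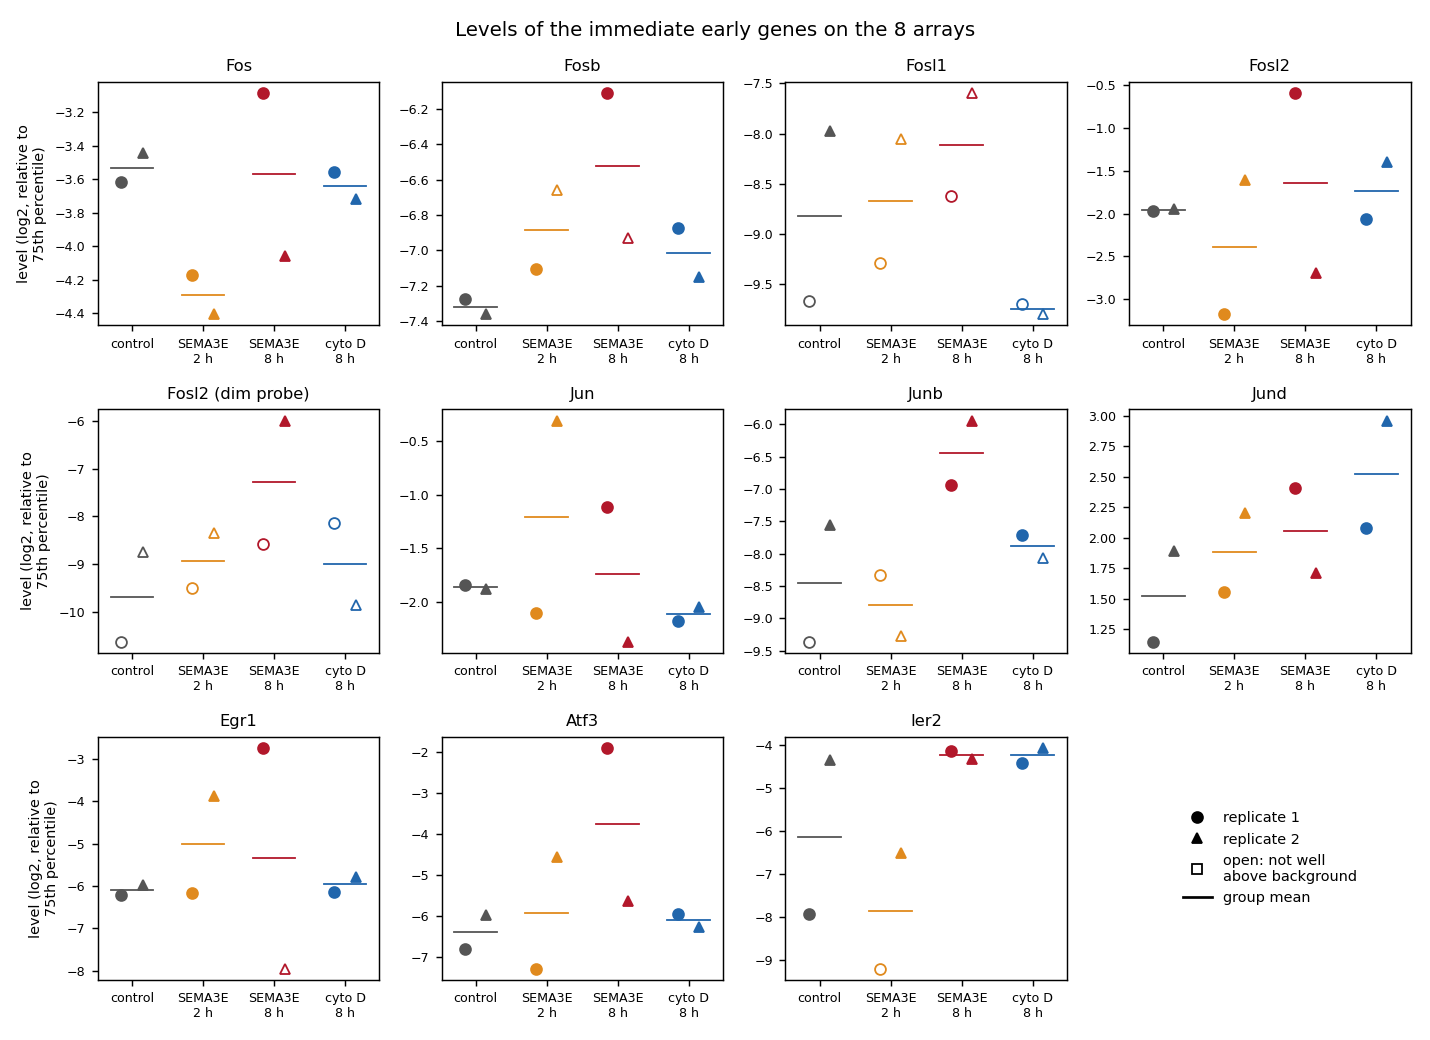
Level of each probe of the 10 genes on the 8 arrays (log2 of processed signal relative to the 75th percentile of the detected probes of the array), with circles for replicate 1, triangles for replicate 2, open symbols where the spot was not well above background, and lines for group means of 2 arrays. The vertical scale differs between panels, and Atf3 and Egr1 stand out in SEMA3E 8 h replicate 1 at -1.89 and -2.73.

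Jun, the founding JUN partner, can raise its own transcription through AP-1 type sites in its promoter. The RefSeq promoter entry of the gene (GRCm38.p6, minus strand, chr4:95052244-95052283, positions -61 to -22 from the start) holds 1 such site, TGACATCA, and it is printed because the Jun levels differ between arrays. Capitals mark the match.
Jun: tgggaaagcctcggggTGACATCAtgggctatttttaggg

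On the arrays Jun read -1.84 and -1.88 in control, -2.10 and -0.31 at 2 h, -1.11 and -2.37 at 8 h, and -2.17 and -2.05 with cytochalasin D. The highest 2 arrays were SEMA3E 2 h replicate 2 and SEMA3E 8 h replicate 1, and their own group partners lay below both controls. The group differences were 0.66 ± 0.62 at 2 h and 0.12 ± 0.62 at 8 h. Both changed sign with 1 array left out, to -0.24 without SEMA3E 2 h replicate 2 and to -0.51 without SEMA3E 8 h replicate 1. The cytochalasin D arrays were lower than both controls, by -0.25 ± 0.62 (adjusted p = 1, limma with Benjamini-Hochberg adjustment).

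Junb encodes a JUN-type partner that often restrains the activity of JUN, and its probe was dim. The levels were -9.36 and -7.55 in control, -8.33 and -9.27 at 2 h, -6.94 and -5.94 at 8 h, and -7.71 and -8.07 with cytochalasin D. It was well above background on both SEMA3E 8 h arrays, on control replicate 2 and on cytochalasin D replicate 1, and not on either SEMA3E 2 h array. The SEMA3E 8 h arrays were the highest 2 of the 8, in contrast to Jun, and replicate 2 was the higher of them. Junb was above control by 2.02 ± 0.64 at 8 h (adjusted p = 0.71, limma), the smallest p of any member against control. It was 5.14-fold higher at 8 h than at 2 h by the fitted means (adjusted p = 0.394, limma). With the 2 h arrays set to their own detection limit, the dimmest signal that counted as well above background, Junb was 1.89-fold higher. This is not a bound, since an undetected spot can be brighter than that limit. On SEMA3E 2 h replicate 2 the limit was a signal of 6.62, and Fosb at 11.6 was undetected. After normexp background correction the difference between the times turned to -0.46. The difference from control was 1.11 without control replicate 1, which did not detect Junb, and 2.92 without control replicate 2. It was 0.51 after normexp, 1.18 after quantile normalization, 0.86 on the median over all probes and 1.5 with undetected spots at the detection limit.

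Jund, the JUN member that many cells express at rest, was bright on every array. It read 1.15 and 1.89 in control, 1.56 and 2.20 at 2 h, 2.41 and 1.71 at 8 h, and 2.08 and 2.96 with cytochalasin D. The SEMA3E arrays overlapped with control, and both cytochalasin D arrays lay above both controls. That difference was 1.0 ± 0.45, or 2.0-fold (adjusted p = 1, limma), and ran from 0.56 without cytochalasin D replicate 2 to 1.44 without its replicate 1.

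Egr1 encodes the zinc finger factor for which the EGR family is named. Its levels were -6.20 and -5.98 in control, -6.16 and -3.87 at 2 h, -2.73 and -7.96 at 8 h, and -6.14 and -5.79 with cytochalasin D. The 5 arrays of control, cytochalasin D and SEMA3E 2 h replicate 1 lay close together. SEMA3E 8 h replicate 1 and SEMA3E 2 h replicate 2 lay above these 5, and SEMA3E 8 h replicate 2 was the lowest array and not well above background. Before scaling, the processed signal was 410 in SEMA3E 8 h replicate 1, 80.1 in SEMA3E 2 h replicate 2 and 9.06 in SEMA3E 8 h replicate 2, against 37.6 and 36.4 in control. The detection limit of replicate 2 was a signal of 19.0. With its spot set there, Egr1 was 17.9-fold higher in replicate 1, which is not a bound. The raised negative controls of replicate 2 lie on the same array, and their part in this value was not tested. As group means, Egr1 differed from control by 1.08 ± 1.51 at 2 h, 0.75 ± 1.51 at 8 h and 0.13 ± 1.51 with cytochalasin D. The 8 h difference was 3.36 without replicate 2 and -1.86 without replicate 1, so that 1 array set its sign, and the value without replicate 1 rests on an undetected spot. At the detection limit the 8 h difference was 1.28.

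Atf3 encodes a stress-inducible ATF protein that pairs with JUN proteins and can repress its own promoter. Its levels were -6.78 and -5.97 in control, -7.28 and -4.56 at 2 h, -1.89 and -5.63 at 8 h, and -5.94 and -6.26 with cytochalasin D. SEMA3E 8 h replicate 1 was the highest array, and SEMA3E 2 h replicate 2 the next. The probe was on 2 spots of each array, and both spots had SEMA3E 8 h replicate 1 as the highest array by far. Before scaling they read 755 and 715 in SEMA3E 8 h replicate 1, 48.3 and 43.0 in its replicate 2, and 28.6 and 22.1 on control replicate 1. In SEMA3E 2 h they read 4.98 and 12 in replicate 1, where the first spot was not well above background, against 58.3 and 42.1 in replicate 2. The first spot was brighter in SEMA3E 2 h replicate 2 than in SEMA3E 8 h replicate 2, and the second was not. Both 8 h arrays of SEMA3E lay above both controls, and the difference of 2.62 ± 1.24, or 6.13-fold, had an adjusted p of 0.827 by limma. It was 0.75 without replicate 1 and 4.48 without replicate 2, 1.73 after normexp and 1.46 on the median over all probes. At 2 h the difference was 0.46 ± 1.24, and with cytochalasin D it was 0.27 ± 1.24.

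The promoter of Atf3 is printed because 1 array held a level of this gene that no other array came near. In the RefSeq entry, TTGCATCA at positions -110 to -103 from the start is the reverse complement of a match to TGATGNAA, the composite C/EBP-ATF element read by ATF4 and its partners. TTACGTCA at positions -10 to -3 is the reverse complement of a match to TGACGTNA, a cyclic AMP response type element read by CREB and ATF proteins. The matches, in capitals, do not overlap (GRCm38.p6, minus strand, chr1:191183320-191183459, positions -126 to 14).
Atf3: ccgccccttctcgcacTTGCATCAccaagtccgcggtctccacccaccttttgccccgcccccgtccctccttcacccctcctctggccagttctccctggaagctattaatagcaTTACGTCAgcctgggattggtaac

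Promoter entries, which reach from upstream to just past the start, were searched on both strands for 7 of the 10 members. These were Atf3, Fos, Fosb, Fosl2, Jun, Junb and Jund. Egr1, Fosl1 and Ier2 were not searched, so sites at their starts are unknown here. Every entry of a searched member was used, whereas the shares over all promoters rest on the first entry of each gene. Of 27025 RefSeq promoters of that length, 4.06% held TGATGNAA, 3.08% held TGACGTNA and 3.76% held TGACATCA. Each of these was in 1 of the 7, Atf3 for the first pair and Jun for TGACATCA. The CArG box, at which the serum response factor binds, was in 1.57% of all promoters. TGANTCA was searched with any base at N, which includes the AP-1 site but is wider, and was in 7.93%. GCGTGGGCG, the EGR site, was in 0.625%. These 3 were in 0 of the 7 windows. A match describes the letters and not a bound site, and elements farther from the start were not searched.

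Ier2 read -7.91 and -4.33 in control, -9.20 and -6.50 at 2 h, -4.12 and -4.32 at 8 h, and -4.41 and -4.05 with cytochalasin D. Here both 8 h groups were tight and close to control replicate 2, while control replicate 1 was 12-fold below its partner. SEMA3E 2 h replicate 1 was the lowest array and not well above background. Ier2 was higher at 8 h of SEMA3E than at 2 h by 3.62 ± 1.19, with both arrays on the same side (adjusted p = 0.409, limma). With the undetected array at its limit the difference was 2.65, and after normexp it was 0.49 (adjusted p = 0.423, limma). When arrays were scaled on the median over all probes it was 3.06 and was called, at an adjusted p of 0.0252 by limma, with 36 genes called in all. Over all alternatives its adjusted p ran from 0.0252 to 0.912. It differed from control by -1.72 ± 1.19 at 2 h, 1.90 ± 1.19 at 8 h and 1.89 ± 1.19 with cytochalasin D. Without control replicate 1, these were -3.51, 0.11 and 0.10, and without control replicate 2 they were 0.068, 3.69 and 3.68. At the detection limit the 2 h difference was -0.75. The 8 h difference was 0.82 after normexp and 0.74 on the median over all probes. Each of the 3 thus depended on which control array was kept.

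Across the set, 0 of the 9 tested members passed an adjusted p of 0.05 after 2 h of SEMA3E, where limma called 0% of the 18073 genes tested. At an unadjusted p under 0.05 the count was 0 of 9, beside 1712 of the 18073 genes. Of the 9 differences 5 were above 0 and 4 below, beside 54.9% of all genes above 0. Their median was 0.36, and the median over all genes was 0.06. The range ran from -1.72 for Ier2 to 1.08 for Egr1. The groups did not overlap for 2 members, Fos on the low side and Fosb on the high side, and 39.7% of all genes had groups that did not overlap.

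After 8 h of SEMA3E 0 of 9 members were called against control, with 0.00553% of all genes called by limma, which is 1 gene. Only Junb had an unadjusted p under 0.05, beside 1109 of 18073 genes. The median over the 9 members was 0.75 against 0.12 for all genes, and the largest differences were those of Atf3, Junb and Ier2. The differences were above 0 for 8 members, all but Fos, beside 63.4% of all genes. When arrays were scaled on the median over all probes, 5 of these 8, namely Fosb, Fosl2, Jun, Jund and Egr1, turned below 0 together with the median over all genes at -1.04, and Junb, Atf3 and Ier2 stayed above 0. The arrays did not overlap for 4 members, Fosb, Junb, Atf3 and Ier2, all higher with SEMA3E, beside 37.4% of all genes in either direction. These comparisons share the 2 control arrays, and replicate 1 minus replicate 2 of control was -3.58 for Ier2 and -1.81 for Junb.

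With cytochalasin D 0 of 9 members were called, where limma called 0% of all genes. At an unadjusted p under 0.05 there were 0 of 9, beside 441 of 18073 genes. The differences ran from -0.25 for Jun to 1.89 for Ier2, with a median of 0.27 against 0.03 for all genes. The arrays did not overlap for 3 members, Fosb and Jund above control and Jun below, beside 28.9% of all genes.

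**Figure D2:**
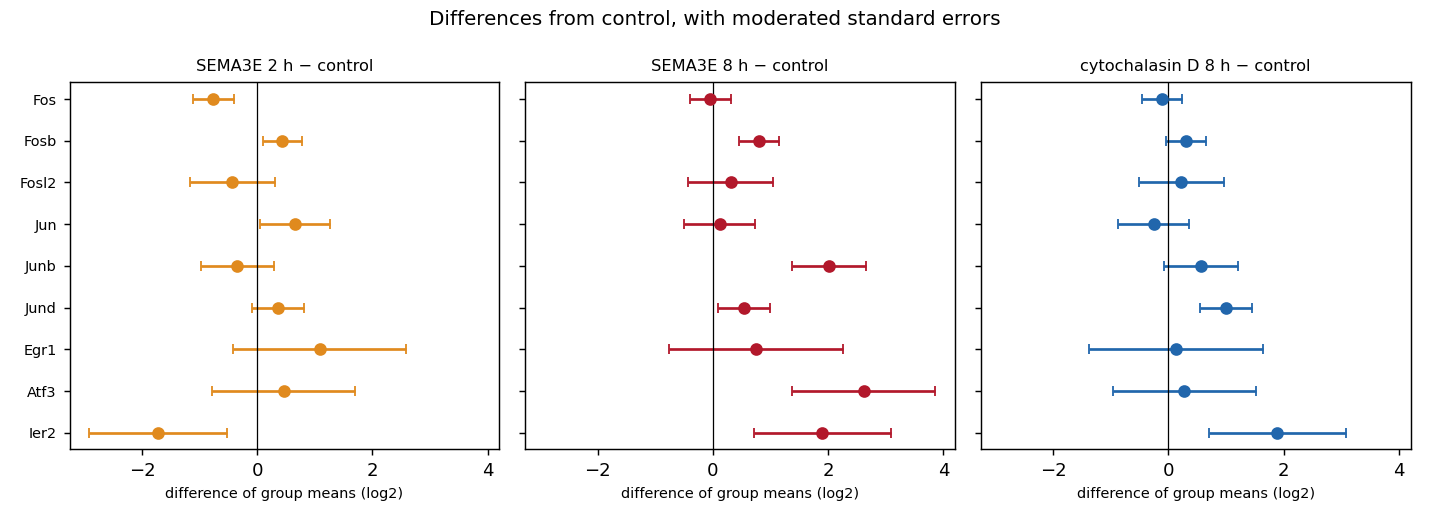
Difference of each tested gene from control (log2, group means of 2 arrays each) for the 3 treated groups, with bars of 1 moderated standard error from limma. Junb at 8 h of SEMA3E lies at 2.02 ± 0.64 and Atf3 at 2.62 ± 1.24, while the wide bars of Egr1, 1.51 in each panel, reflect the split between replicates.

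The 2 treatments at 8 h, which were matched in time, gave 0 called members of 9, with 0.00553% of genes called by limma. At an unadjusted p under 0.05 there were 0 of 9, beside 1986 of 18073 genes. Of the 9 differences of cytochalasin D minus SEMA3E, 8 were below 0, where 39.7% of all genes were above 0. The median over the members was -0.37 against -0.13 for all genes. Junb was lower with cytochalasin D by -1.45 ± 0.64 and Atf3 by -2.34 ± 1.24, and these were the 2 members whose groups did not overlap, beside 52.4% of all genes. Without SEMA3E 8 h replicate 1 the Atf3 difference was -0.47, whereas that of Junb was -1.95, and after normexp background correction that of Junb was 0.05 and that of Atf3 -1.25. On the median over all probes they were -0.47 for Junb and -1.36 for Atf3. Jund alone was above 0, at 0.46 ± 0.45.

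Between 2 h and 8 h of SEMA3E 0 of 9 members were called, where limma called 0% of genes. Junb and Ier2, 2 of 9, had an unadjusted p under 0.05, beside 2099 of 18073 genes. The 8 h level was the higher for 7 members, beside 56.4% of all genes, with a median difference of 0.72 against 0.09 for all genes. Groups did not overlap for Fos, Junb and Ier2, beside 50.5% of all genes. Fos was higher at 8 h by 0.72 ± 0.35 (adjusted p = 0.447, limma). Jun at -0.54 ± 0.62 and Egr1 at -0.33 ± 1.51 lay below 0, and Egr1 was at 0.20 at the detection limit. Both turned above 0 without SEMA3E 2 h replicate 2 or SEMA3E 8 h replicate 2.

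The median size of the difference between replicates, over the 9 members, was 0.22 in control, 1.57 at 2 h of SEMA3E, 0.99 at 8 h and 0.35 with cytochalasin D. With each undetected spot raised to the detection limit of its array, a setting chosen after seeing the data, it was 0.76 at 2 h and 0.99 at 8 h, so the order of these SEMA3E groups turned. At 8 h replicate 1 exceeded replicate 2 by 5.23 for Egr1, 3.74 for Atf3 and 2.10 for Fosl2, and these 3 of 9 members were past 4-fold, beside 0.227% of all genes (41 of 18073). The value of Egr1 rests on an undetected spot in replicate 2 and was 4.16 at the limit, at which the same 3 members were past 4-fold, beside 0.122% of all genes. Jun at 1.26, Fos at 0.97, Fosb at 0.82, Jund at 0.70 and Ier2 at 0.20 had the same sign, and Junb at -0.99 was the 1 member lower in replicate 1. The median over the 9 members was 0.97, where the median over all genes was -0.10. These arrays are 2 samples of 1 treatment, so no test applies to this difference. The summed level of the 5 macrophage markers was 0.0454 in replicate 1 and 0.0691 in replicate 2, and of these Csf1r was above background on 8 arrays, Adgre1 on 3, Ptprc on 1, and Cd14 and Lyz2 on 0. The sum of the 4 keratinocyte markers was 0.0144 and 0.0332, with Krt14 above background on 6 arrays, Krt5 on 3, and Krt1 and Krt10 on 0. That of the 7 melanocyte markers was 92 and 99.3. The correlation of probe GC content with the deviation of a gene from its mean was 0.168 in replicate 1 and 0.31 in replicate 2. The part of the markers in the difference was not tested, and the values with the base composition trend removed follow.

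**Figure D3:**
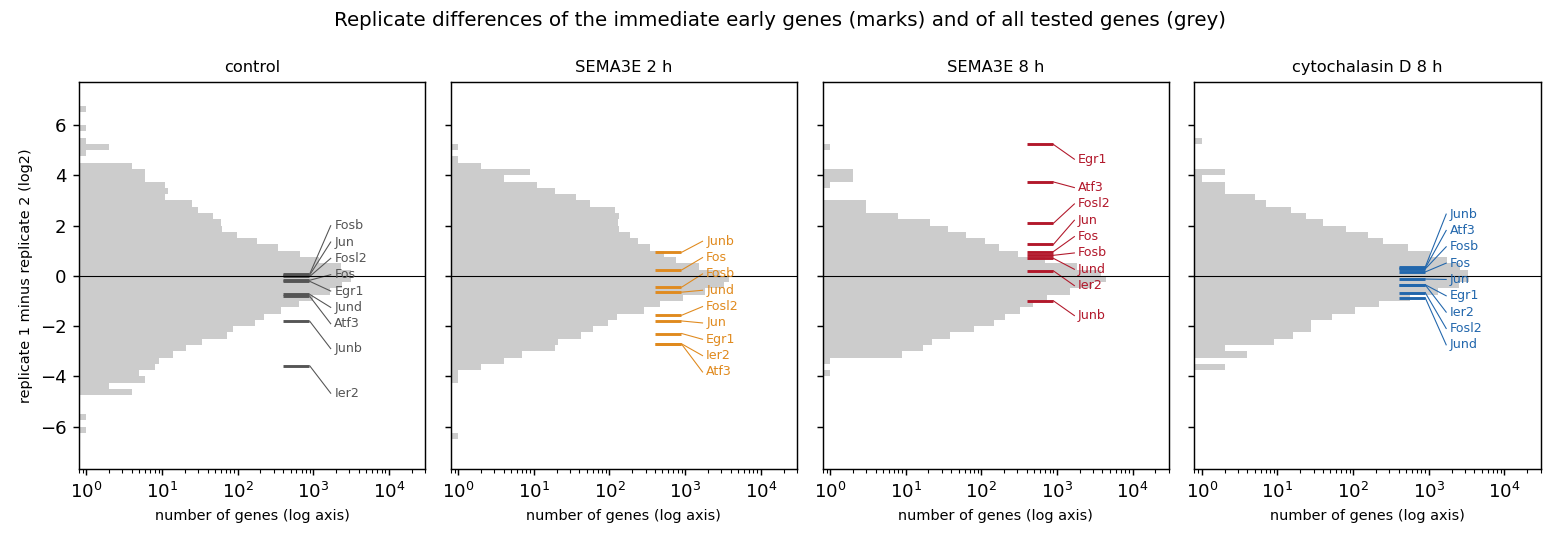
Replicate 1 minus replicate 2 (log2) in each group, with grey bars counting all 18073 tested genes on a log axis and coloured marks for the 9 tested immediate early genes, joined by lines to their names. In SEMA3E 8 h, Egr1 lies at 5.23, with its replicate 2 at background, and Atf3 at 3.74, and in SEMA3E 2 h Atf3 and Egr1 lie at the opposite side, as does Ier2, whose replicate 1 was not well above background.

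These differences were also computed under 4 other settings, chosen after seeing the data, and all tested members but Fosb and Junb kept their sign. Atf3, Egr1, Fosl2, Jun, Fos and Jund were higher in replicate 1 after normexp background correction, after quantile normalization, with arrays scaled on the median over all probes and with the trend on probe base composition removed. Ier2 was also above 0 in all 4, though only at 0.0026 after normexp. Fosb turned to -0.03 after normexp. Junb turned to 0.67 with the median of all probes, a scaling that moved the median of all genes to 1.57. The size depended on the setting. Atf3 stood at 2.52 after normexp, 4.28 after quantile normalization, 5.40 on the median over all probes and 3.95 with the base composition trend removed. Egr1 stood at 2.34 after normexp, and at 6.67, 6.89 and 5.22 under the other 3.

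In SEMA3E at 2 h the split went the other way by label, with replicate 2 the higher for 7 of 9 members, beside 60.8% of all genes. Replicate 1 was past 4-fold lower for Atf3, at -2.72, Ier2, at -2.70, and Egr1, at -2.29, which makes 3 of 9 beside 0.88% of all genes. Replicate 1 was undetected for Ier2 and on 1 of the 2 spots of Atf3. At the detection limit Ier2 stood at -0.76, or 1.69-fold, and Atf3 at -2.39, so that 2 of 9 were past 4-fold, beside 0.243% of all genes. Jun at -1.79 and Fosl2 at -1.57 followed. Fos at 0.23 and Junb at 0.94 had the opposite sign. In control, where both arrays detected it, Ier2 at -3.58 was the 1 member past 4-fold lower in replicate 1, beside 1.46% of all genes, and with cytochalasin D the members differed by at most 0.88.

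The genes raised most in replicate 1 over replicate 2 of SEMA3E 8 h put Atf3 in company. Genes lower in replicate 1 were not ranked. Over all tested genes 169 were past 4-fold lower in replicate 1 and 41 past 4-fold higher. Among the 10968 genes with a current symbol that were above background on all 8 arrays, Atf3 had rank 4, behind Nupr1, Gdf15 and Trib3 and ahead of Ppp1r15a, Slc23a3, Kdm5b, Chac1, Gzmm and Rpe. Nupr1, Trib3, Ppp1r15a and Chac1 are textbook targets of the integrated stress response, Gdf15 is a cytokine that cells under stress secrete, and Ppp1r15a encodes GADD34, which restores translation afterwards. This list, and Ddit3, Atf4 and Cebpb beside it, were chosen after their values on these arrays were seen and get no test of the split. Trib3 read 3.08 in SEMA3E 8 h replicate 1 and -0.91 in replicate 2, with -0.67 and -1.23 in control. Gdf15 read -0.24 and -4.27 in these 8 h arrays, with -4.82 and -5.16 in control.

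The 2 h levels did not rank the 10 genes, though detection on the 2 h arrays was required of them. At 2 h 7 of the 10, Atf3 included, were higher in replicate 2 than in replicate 1. This is near the 63.1% of the genes ranked. The size varied, with 2.97 for Trib3, 2.72 for Atf3, 2.49 for Nupr1 and 2.38 for Gdf15, against 0.10 for Ppp1r15a and -0.10 for Chac1. Ddit3, which encodes the stress factor CHOP, read -2.76 and -2.65 in control, -2.11 and -1.42 at 2 h, 0.17 and -1.86 at 8 h, and -2.49 and -3.50 with cytochalasin D. All 4 SEMA3E arrays of Ddit3 were above both controls, and the difference at 8 h was 1.86 ± 0.66 (adjusted p = 0.749, limma). Atf4, whose protein level is set mainly by translation, differed by 0.37 between the SEMA3E 8 h arrays.

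**Figure D4:**
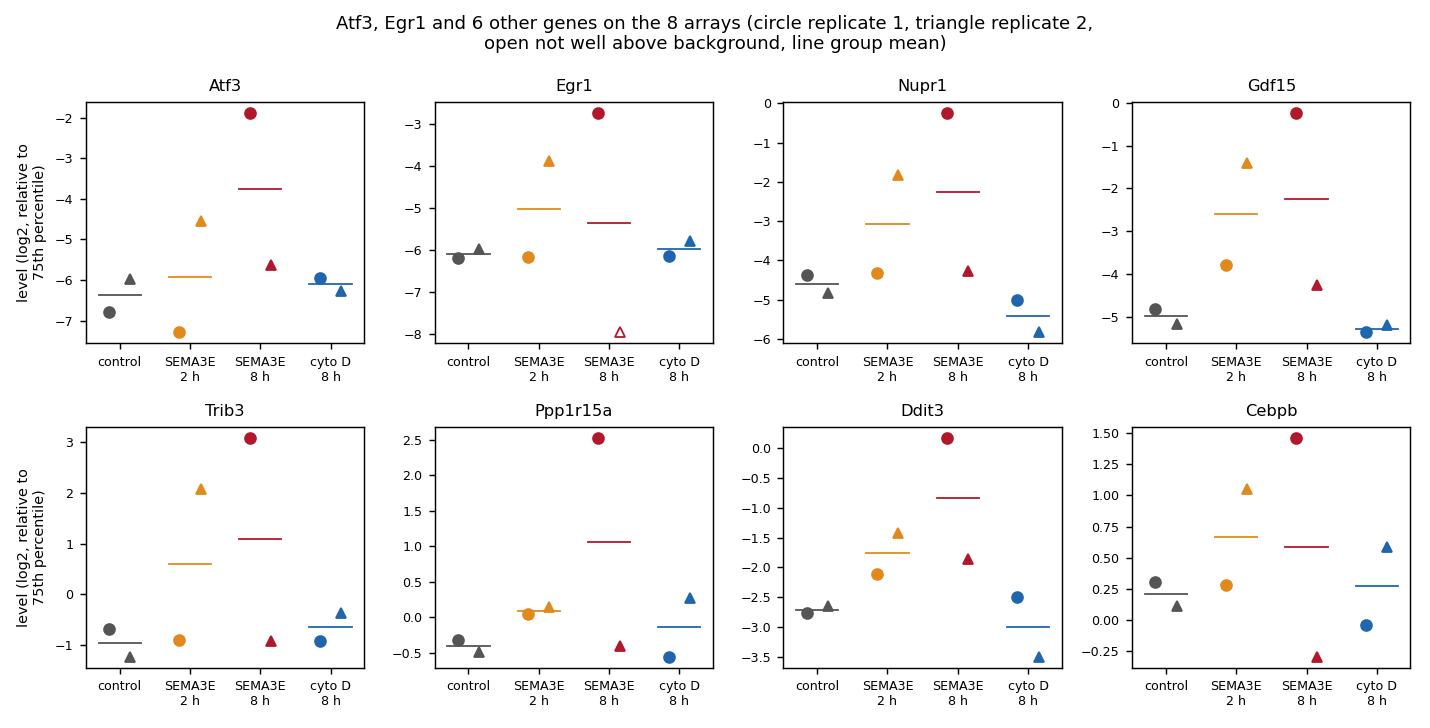
Levels of Atf3, Egr1 and 6 other genes on the 8 arrays (log2 relative to the 75th percentile of the detected probes), with circles for replicate 1, triangles for replicate 2, an open symbol where the spot was not well above background, and lines for group means. SEMA3E 8 h replicate 1 is the highest array in all 8 panels, and SEMA3E 2 h replicate 2 the second highest for Atf3, Egr1, Nupr1, Gdf15, Trib3, Ddit3 and Cebpb.

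All 10 of these genes had a RefSeq promoter, and 5 of them, Atf3, Chac1, Nupr1, Slc23a3 and Trib3, held TGATGNAA, which 4.06% of all promoters hold. TGACGTNA was in 3, Atf3, Kdm5b and Ppp1r15a, beside 3.08% of all promoters, and the CArG box, TGANTCA, TGACATCA and GCGTGGGCG were in 0 of 10. For comparison with the Atf3 promoter, 40 bases around the match are shown for 2 genes with the first element and 1 with the second, with the match in capitals (GRCm38.p6). They lie at chr2:119351033-119351072 on the plus strand for Chac1, chr7:126625557-126625596 on the minus strand for Nupr1 and chr7:45526257-45526296 on the minus strand for Ppp1r15a.
Chac1: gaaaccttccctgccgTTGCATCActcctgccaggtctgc
Nupr1: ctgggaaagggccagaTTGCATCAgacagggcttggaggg
Ppp1r15a: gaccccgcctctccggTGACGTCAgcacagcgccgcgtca

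The same 8 letters, TTGCATCA, appear in Atf3, Chac1 and Nupr1. Slc23a3 holds TGATGGAA, another form of the element. Whether these matches have a part in the levels was not tested. Every entry of these genes was searched, whereas the shares of all promoters rest on the first entry of each gene.

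The other genes of the pathway, from lists chosen by function, gave 0 calls by limma in either direction in all 5 comparisons. At an unadjusted p under 0.05 the 24 tested other immediate early genes had 5 at 2 h of SEMA3E and 3 at 8 h. The 18 tested bZIP factors had 1 and 2, and the 17 tested upstream factors 2 and 0. The corepressors and AP-1 targets had 0, and with cytochalasin D against control every list had 0. Over all 18073 genes these counts were 1712 at 2 h, 1109 at 8 h and 441 with cytochalasin D. Of all genes 54.9%, 63.4% and 53.4% lay above 0 in these 3 comparisons. Of 33 other immediate early genes 24 were tested, and 7 lay above 0 at 2 h of SEMA3E, with a median of -0.21 against 0.06 for all genes. Myc, a growth regulator, read 0.79 and 1.39 in control, -0.57 and -1.29 at 2 h, -0.11 and -0.27 at 8 h, and 1.32 and 1.14 with cytochalasin D. All 4 SEMA3E arrays of Myc were thus below all 4 others, and the difference from control was -2.02 ± 0.34 at 2 h (adjusted p = 0.401, limma) and -1.28 ± 0.34 at 8 h. Ccn2, a matricellular growth factor, differed by -1.12 ± 0.26 at 2 h and -0.88 ± 0.26 at 8 h. At 8 h 11 of the 24 were above 0 with a median of -0.04, and with cytochalasin D 18 were above 0 with a median of 0.08, where Plk2 and Plk3 had the smallest p at 0.69 ± 0.44 and 0.73 ± 0.49.

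Of 21 AP-1 partners and other bZIP factors 18 were tested, with 11 above 0 at 2 h, 12 at 8 h and 9 with cytochalasin D, and medians of 0.16, 0.16 and -0.01. Mafk, a small MAF protein, and Atf1 had the smallest p at 2 h, at -0.95 ± 0.37 and -0.82 ± 0.39. At 8 h these were Ddit3 and Atf6, a sensor of unfolded protein in the endoplasmic reticulum, at 1.28 ± 0.51. With cytochalasin D they were Maf at -0.74 ± 0.39 and Atf5 at 0.68 ± 0.46. In the SEMA3E 8 h arrays 14 of these 18 were higher in replicate 1, with a median of 0.38 against -0.10 for all genes. Ddit3 at 2.03, Cebpb at 1.76 and Atf5 at 1.46 led them. Of the 24 tested other immediate early genes, 13 were higher in replicate 1, with a median of 0.27.

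Of 18 upstream factors and kinases 17 were tested, with 7 above 0 at 2 h, 9 at 8 h and 9 with cytochalasin D. Elk1 and Elk4, ETS partners of the serum response factor at early gene promoters, had the smallest p at 2 h, at 0.97 ± 0.27 and 0.66 ± 0.26 (adjusted p = 0.465 and 0.518, limma). Elk3, another ETS partner, and Mapk3, which encodes the kinase ERK1, differed by -0.68 ± 0.30 and 0.75 ± 0.34 at 8 h. Rps6ka1, which encodes a kinase downstream of ERK, differed by 0.44 ± 0.27 with cytochalasin D. In the SEMA3E 8 h arrays 8 of these 17 were higher in replicate 1, with a median of -0.03 against -0.10 for all genes. The genes of the EGR corepressors, Nab1 and Nab2, whose proteins bind EGR1, differed from control by -0.26 to 0.60 over the 3 comparisons. The highest was Nab2 with cytochalasin D at 0.60 ± 0.36.

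Of 15 AP-1 target genes 8 were tested, since the other 7 were at background. At 2 h 2 of 8 were above 0, at 8 h 5 and with cytochalasin D 5, with medians of -0.17, 0.16 and 0.04. Spp1, which encodes osteopontin, and Ccnd1, which encodes cyclin D1, differed by -0.39 ± 0.38 and -0.24 ± 0.31 at 2 h. At 8 h Hmox1, the stress-induced heme oxygenase, differed by 0.85 ± 0.42 and the angiogenic factor Vegfa by 0.91 ± 0.63, and with cytochalasin D the adhesion receptor gene Cd44 differed by 0.44 ± 0.40. In the SEMA3E 8 h arrays 4 of the 8 were higher in replicate 1, with a median of -0.21 against -0.10 for all genes.

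Between the treatments at 8 h, and between the SEMA3E times, the list genes with the smallest p were mostly those already named. Myc was higher with cytochalasin D than with SEMA3E at 8 h by 1.42 ± 0.34 and Gadd45b lower by -0.83 ± 0.28. Ddit3 at -2.15 ± 0.66, Atf6 at -1.36 ± 0.51 and Hmox1 at -0.80 ± 0.42 were lower with cytochalasin D, and Elk3 at 0.87 ± 0.30 and Mrtfb at 0.77 ± 0.29 were higher, with adjusted p from 0.413 to 0.501 by limma. From 2 h to 8 h of SEMA3E, Klf4 differed by 2.14 ± 0.66, Plk3 by 1.24 ± 0.49, Mafk by 1.25 ± 0.37, Maf by -1.13 ± 0.39, Elk1 by -0.89 ± 0.27, Elk3 by -0.60 ± 0.30, Hmox1 by 1.13 ± 0.42 and Spp1 by 0.48 ± 0.38. None of these passed the test.

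Atf3 had the widest range, 5.39, of the members above background on all 8 arrays, or 5.06 with its undetected spot at the detection limit. Of 10963 other genes with a symbol that were above background throughout, those most like it across the 8 arrays were Usp18, Gpt2, Nat8, Rnd1 and Dnajb9, with Pearson's r from 0.975 to 0.98 and Spearman's rho from 0.786 to 0.952. Without SEMA3E 8 h replicate 1, which lies far from the rest, r was 0.902 to 0.955. For Fos, whose range was 1.32, they were Iqcd, Mtmr14, Inpp4a, Usp37 and Zbtb24, with r from 0.913 to 0.96. These are the top of many genes over few arrays that share groups and scaling, and carry no test. Among the members, Atf3 ran with Fosb at r = 0.912, and at 0.693 without SEMA3E 8 h replicate 1, and Jun with Egr1 at 0.83, and at 0.883 without it. Fos and Jun did not run together, at r = -0.16.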

How the data were processed

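The deposited scanner files, made with Agilent Feature Extraction 11.5.1.1 per the file headers, hold processed signals, linear intensity values from which the scanner software had subtracted background, with surrogates for low values. Members and gene lists were chosen with earlier results of these data known. Control spots (1439) and outlier spots were left out, spots of a probe averaged on the log2 scale, and each array scaled to the 75th percentile of the 18687 probes that every array detected. Probes well above background on both arrays of at least 1 group were tested (24667), 1 per gene with the highest mean, and older names updated through RefSeq. One limma 3.58.1 fit (R 4.3.3) over all 8 arrays had 4 residual degrees of freedom, with two-sided tests and Benjamini-Hochberg adjustment over 18073 genes. Named genes were all members, and in each list the 2 with the smallest p per comparison, and the 5 genes most correlated with Atf3 and with Fos. Some genes this rule names are not reported here. With 2 arrays per group precision is low. On simulated data for SEMA3E 8 h against control over 18073 genes, 1 of 50 genes was called at 2-fold and 28 at 4-fold. At 8-fold 46 were called and at 16-fold 48, beside 7 false calls. The tested members had a median SE of 0.64, against 0.342 over all genes, so these counts need not hold for them. Promoters came from RefSeq (GRCm38.p6). Alternatives covered background correction, scaling, filters, probe choice, the authors' deposited table, the model each array left out and, chosen after seeing the data, removal of a trend on probe GC content and undetected spots raised to the detection limit, the lowest signal well above background on an array. A probe on 2 spots counted as well above background where at least 1 was. Python 3.11.15, numpy 2.4.6, pandas 2.3.3 and matplotlib 3.10.9 were used.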

Additional observations from a re-analysis of the deposited data

Results flagged for a closer look

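The second Fosl2 probe, which entered no comparison, was well above background on SEMA3E 8 h replicate 2 at a level of -5.99 and on neither control array. The bright Fosl2 probe was lower on that array than on its partner. The negative controls of that array read 51.6 against 28.1 to 32.4 elsewhere, and their part in the value was not tested. Groups of 2 arrays are too small for a search for single outlying arrays.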

How the results depend on the processing

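No member was called under 19 of the 21 alternatives, 8 of which left out 1 array each. After normexp background correction 2 members, Fosb at 0.88 and Junb at 0.98, were called at 2 h of SEMA3E (adjusted p = 0.0483 each, limma), where 3473 of 18073 genes were called and the median of all genes was 0.39. When arrays were scaled on the median over all probes, 1 member, Ier2, was called between the SEMA3E times. Of the 45 member differences 24 changed sign under another setting, 25 with 1 array left out and 32 under either, and the cause was not tested. The value moved by over 1.5 times, or turned, for 38 of the 45 on the median over all probes, 34 after normexp, 19 after quantile normalization, 12 with the trend on probe GC content removed, 7 at the detection limit and 4 in the authors' deposited table. The replicate numbers did not pair the arrays, with correlations of deviations from -0.15 to 0.14, and the fit with the replicate block called 0 members in each comparison and 7 genes at 8 h of SEMA3E against 1 without it. Without SEMA3E 2 h replicate 1, limma called 416 genes at 2 h and 461 between the times, and 0 members in both. The authors' deposited table gave 20, 13, 9, 13 and 20 called genes, in the order 2 h, 8 h and cytochalasin D against control, cytochalasin D against SEMA3E at 8 h, and 8 h against 2 h.

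After normexp these differences changed sign: for SEMA3E 2 h minus control Junb at 0.98 and Ier2 at 0.33, for SEMA3E 8 h minus control Fos at 0.079, for cytochalasin D minus control Fos at 0.11, for cytochalasin D minus SEMA3E at 8 h Fos at 0.031, Fosb at 0.13, Junb at 0.045 and Ier2 at 0.15, and for SEMA3E 8 h minus 2 h Fosb at -0.54 and Junb at -0.46. After quantile normalization they were, for SEMA3E 8 h minus control, Fosb at -0.27 and Egr1 at -0.19, for cytochalasin D minus SEMA3E at 8 h Fos at 0.17, Fosb at 0.55, Fosl2 at 0.012, Egr1 at 0.34 and Ier2 at 0.24, and for SEMA3E 8 h minus 2 h Fosb at -0.47.

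With the median of all probes they were, for SEMA3E 2 h minus control, Fosb at -0.15, Jund at -0.23 and Atf3 at -0.13, for SEMA3E 8 h minus control Fosb at -0.36, Fosl2 at -0.85, Jun at -1.04, Jund at -0.62 and Egr1 at -0.41, and for cytochalasin D minus control Egr1 at -0.051. For cytochalasin D minus SEMA3E at 8 h they were Fos at 0.92, Fosb at 0.49, Fosl2 at 0.90, Jun at 0.61, Egr1 at 0.36 and Ier2 at 0.97, and for SEMA3E 8 h minus 2 h Fosb at -0.21 and Jund at -0.39. In the authors' deposited table Fosl2 was at -0.51 for SEMA3E 8 h minus control and at 0.73 for cytochalasin D minus SEMA3E. With the trend on probe base composition removed, an alternative chosen after seeing the data, Jun was at -0.32 for SEMA3E 8 h minus control, Jun at 0.036 and Ier2 at 0.47 for cytochalasin D minus SEMA3E, and Jund at -0.026 for SEMA3E 8 h minus 2 h. With undetected spots at the detection limit, also chosen after seeing the data, Junb was at 0.59 for SEMA3E 2 h minus control and Egr1 at 0.20 for SEMA3E 8 h minus 2 h.

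Leaving out 1 array at a time gave these ranges where a sign changed. For SEMA3E 2 h minus control they were -0.90 to 1.82 for Atf3, -0.065 to 2.23 for Egr1, -1.22 to 0.35 for Fosl2, -3.51 to 0.068 for Ier2, -0.24 to 1.55 for Jun, -1.25 to 0.56 for Junb and -0.0085 to 0.73 for Jund. For SEMA3E 8 h minus control they were -1.86 to 3.36 for Egr1, -0.53 to 0.44 for Fos, -0.74 to 1.36 for Fosl2 and -0.51 to 0.75 for Jun. For cytochalasin D minus control they were -0.13 to 0.68 for Atf3, -0.049 to 0.30 for Egr1, -0.11 to 0.56 for Fosl2 and -0.34 to 1.47 for Junb. For cytochalasin D minus SEMA3E at 8 h they were -3.23 to 1.99 for Egr1, -0.55 to 0.42 for Fos, -1.13 to 0.96 for Fosl2, -0.19 to 0.17 for Ier2 and -1.0 to 0.26 for Jun. For SEMA3E 8 h minus 2 h they were -2.95 to 2.28 for Egr1, -0.048 to 0.77 for Fosb, -0.30 to 1.79 for Fosl2, -1.43 to 0.36 for Jun and -0.17 to 0.53 for Jund. A group of 1 array was then assumed to vary like the others.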
